A study of Mus musculus with 8 samples.

Results

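Brown adipocytes are made from a shared precursor with skeletal muscle, and a small group of transcription factors sets and keeps that identity. The 10 genes described here are Prdm16, Ebf1, Ebf2, Ebf3, Zic1, Lhx8, Tbx15, Nfia, Zfp516 and Zfp423. They encode factors of this kind, markers of the brown depot and, with Zfp423, a factor that holds brown identity back. They were taken by gene name from the 54532 genes of the deposited table, and all 10 were found. The table holds bulk RNA sequencing of brown adipose tissue, the heat-producing fat, from 4 wild-type mice (WT) and 4 transgenic mice labelled TG (CLCF1-ATG), numbered 1, 2, 3 and 5 in each genotype. CLCF1 belongs to the cytokines related to interleukin-6. Strain, age, sex and the promoter behind the transgene are not stated in the labels. The transgenic label fitted the libraries, since Clcf1 itself stood at 0.434 to 3.40 FPKM in WT and at 78.7 to 89.9 FPKM in TG. FPKM scale the fragments of a gene by its length and by the library size, so levels can be set side by side between genes.

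As background, PRDM16 is a zinc finger coregulator that turns on brown genes and holds back muscle and white fat genes. It works with C/EBPβ, PPARγ, PGC-1α and the methyltransferase EHMT1. The EBF proteins are DNA-binding factors of which EBF2 marks brown precursors and opens brown fat enhancers together with PPARγ. NFIA binds many of the same enhancers, and ZFP516 is a cold-induced factor that binds the Ucp1 promoter with PRDM16. ZIC1, LHX8 and TBX15 are zinc finger, homeobox and T-box factors used as markers of the classical brown depot. ZFP423 has the opposite reputation: it commits precursors to the fat lineage and keeps adipocytes white by restraining EBF2 and PRDM16.

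Zfp423 was the member with the largest difference between the genotypes, and the 250 bases before its start sites are shown for that reason. RefSeq, on GRCm38.p6, gives it 2 start sites on the minus strand of chromosome 8, and the deposited table gives 1 value for both. The outer one coincides with the end of the gene in the table, and the inner one lies inside the gene. GENCODE M21 transcripts Zfp423-202 and Zfp423-203 begin at these sites. Capitals mark CCCNNGGG, the core letters of the sequence that EBF proteins bind, which reads the same on both strands.
Zfp423 outer start, chr8:87959596-87959845: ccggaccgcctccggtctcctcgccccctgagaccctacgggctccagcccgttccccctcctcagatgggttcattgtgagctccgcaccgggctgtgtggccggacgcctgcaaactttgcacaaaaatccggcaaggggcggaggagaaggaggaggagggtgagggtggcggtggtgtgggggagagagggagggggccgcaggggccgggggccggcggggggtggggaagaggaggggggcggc
Zfp423 inner start, chr8:87804440-87804689: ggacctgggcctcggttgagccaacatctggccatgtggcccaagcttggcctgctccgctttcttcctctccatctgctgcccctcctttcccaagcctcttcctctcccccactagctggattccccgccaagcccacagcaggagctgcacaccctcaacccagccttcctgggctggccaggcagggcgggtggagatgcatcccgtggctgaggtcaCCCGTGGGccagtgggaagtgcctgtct

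The inner window held CCCGTGGG, which begins 28 bases before the start site, and the outer window held no such match. CCCNNGGG occurred in 11.8% of the 32851 RefSeq promoter windows of 250 bases. Among 9 windows of 7 members it was found in 2, the other being that of Ebf3 (CCCGGGGG, 21 bases before the start). The letters TTCNNNGAA, bound by STAT factors and also the same on both strands, were in 7.02% of all windows and in 0 of these 9. A match or its absence describes these letters and not binding of a factor. Not all windows sit at a GENCODE M21 start. The Nfia start, 97581943, lies outside the gene of the deposited table, which begins at 97772734. No transcript of the gene held the bases just after the start for Nfia and for the Ebf1 window at 44619978. For Lhx8 and the other Ebf1 window, none began there. Zfp516, Ebf2 and Tbx15 are named without a window.

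Depth differed between the genotypes. Reads recovered from the FPKM came to 13734231 to 15751302 in the WT libraries, and the TG libraries held 18494022 to 20183840. Mitochondrial reads made up 29.4% ± 5.78 of the WT reads, against 6.87% ± 0.547 for TG (SD, n = 4 each). WT 2 and TG 5 stood apart from the other libraries in skeletal muscle transcripts: the summed FPKM of 10 muscle markers was 2898 in WT 2 and 1614 in TG 5, against 23.8 to 282 in the other 6. Markers of adipocytes and brown adipocytes were present in every library. The 10 brown adipocyte markers, which include Ucp1 and Cidea, summed to 6985 to 9901 FPKM in WT and 637 to 1051 FPKM in TG, and those of all adipocytes to 9041 to 10793 and 22893 to 34753 FPKM. In bulk tissue, fewer cells of a type and less RNA per cell cannot be told apart.

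All 10 members reached 0.5 FPKM in 4 or more libraries, the filter used, and each had more than 3 reads in each library. In a limma fit over all 12508 tested genes on log2(FPKM + 1), with Benjamini-Hochberg adjustment at 0.05, 4 of the 10 members were higher in TG, 0 were lower and 6 did not pass. The 4 were Zfp423, Zfp516, Ebf2 and Lhx8, of which Zfp516 and Lhx8 met the filter through their TG libraries. That share is close to the background, since 44.1% of all tested genes passed, 22.3% being higher and 21.8% lower. The median log2 difference of the members was 0.33, against 0.01 over all tested genes. WT and TG did not overlap for 3 members, Zfp423, Zfp516 and Ebf2, and for 42.6% of all tested genes.

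**Figure D1:**
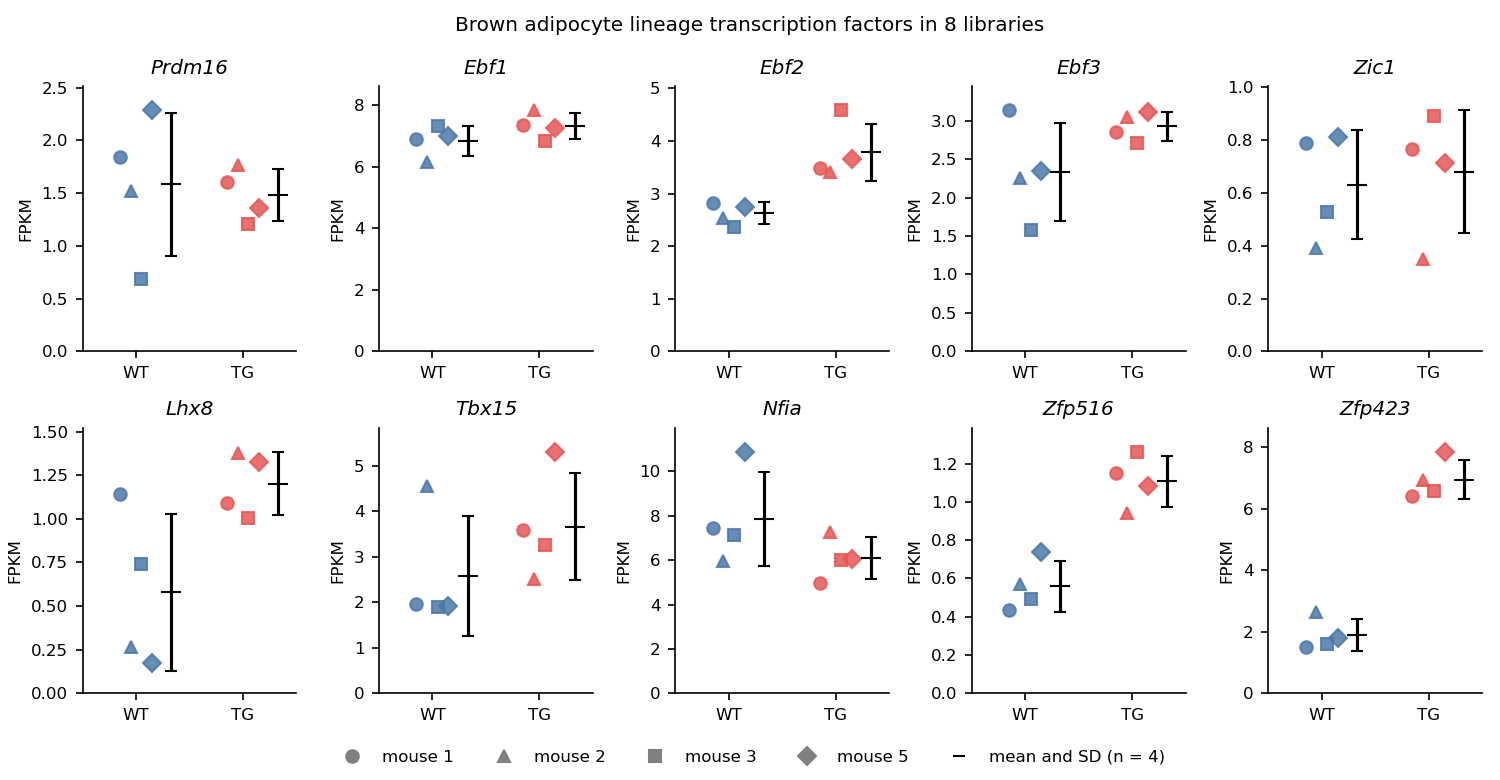
FPKM of each member in the 8 libraries, 1 panel per gene with its own axis from 0; symbols stand for the mouse number, bars for the mean and SD of 4 libraries. Zfp423, Zfp516 and Ebf2 have no overlap between WT and TG, and the other 7 do.

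The order of the members by level changed mainly through Zfp423. In WT the highest means were those of Nfia (7.84 ± 2.11 FPKM) and Ebf1 (6.84 ± 0.497), whose ranges overlapped. Ebf2, Tbx15, Ebf3, Zfp423 and Prdm16 followed between 2.62 and 1.58 FPKM, each overlapping its neighbour, and Zic1, Lhx8 and Zfp516 were lowest at 0.631, 0.580 and 0.558 FPKM. Zfp423 was the sixth gene in that order. In TG it was the second, at 6.95 ± 0.637 FPKM, between Ebf1 (7.32 ± 0.412) and Nfia (6.07 ± 0.943), and the ranges of these neighbours overlapped. Expressed as a percentile among all tested genes of a library, Zfp423 went from 25.4 to 39.7 in WT to 63.2 to 67.4 in TG, while Prdm16 stood at 11.8 to 35.4 in WT and 20.7 to 29.4 in TG.

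Zfp423 (ENSMUSG00000045333, chromosome 8, 87661810 to 87959595, minus strand) stood at 1.51, 2.65, 1.596 and 1.79 FPKM in WT mice 1, 2, 3 and 5. In the TG mice of the same numbers it stood at 6.43, 6.94, 6.59 and 7.85 FPKM. The lowest TG library was above the highest WT library, which was WT 2. The ratio of the group means was 3.68. The log2 difference was 1.47 (SE 0.136, 95% interval 1.17 to 1.78, limma adjusted p = 3.22e-05), and the exact permutation test of the FPKM gave p = 0.0286, two-sided, the smallest p that 4 against 4 allow. These values rested on 100 to 200 reads in each WT library and 824 to 1009 in each TG library. WT 2 and TG 5 were also the highest library of their genotype, and without both the log2 difference was 1.54 (adjusted p = 0.000221). No gene of the table overlaps Zfp423.

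Zfp423 is also active in fat precursors and cells around vessels, so markers of these cells are given beside it. The 10 markers of precursors and fibroblasts summed to 217 to 399 FPKM in WT and 255 to 328 FPKM in TG: 2 were higher (the collagens Col1a1 and Col3a1), 3 lower (Ly6a, Pdgfra and Pdgfrb) and 5 did not pass. The 8 pericyte and smooth muscle markers summed to 118 to 156 FPKM in WT and 35.6 to 63.5 FPKM in TG. Of the 7 that could be tested, 5 were lower and 1 higher, the proteoglycan gene Cspg4, with a log2 difference of 1.88. None of the markers of either list was at 0 in all libraries. Their part in the rise of Zfp423 was not tested.

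Zfp423 was also higher against most other members within a library, a comparison in which the scaling of the libraries cancels. All 45 ratios between 2 members were computed, after the values had been seen, and 15 did not overlap between the genotypes. Zfp423 was part of 8 of these, its ratio to Lhx8 being the exception, and the 9 ratios with Zfp423 share its values. Without Zfp423, 7 of 36 ratios did not overlap. The share over pairs of all tested genes was not computed, so these counts have no background beside them. For single genes that share was 42.6%. The pairs given here and below were picked from the 45, and their p-values were not adjusted for that. The level of Zfp423 was 0.783 to 2.33 times that of Prdm16 in WT and 3.92 to 5.78 times in TG. The log2 ratio of Prdm16 to Zfp423 was -0.35 ± 0.785 in WT, and it was -2.24 ± 0.291 in TG (SD, n = 4; exact permutation p = 0.0286, two-sided). Relative to Ebf2, whose product ZFP423 is known to restrain, it was 0.535 to 1.04 in WT and 1.44 to 2.15 in TG.

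**Figure D2:**
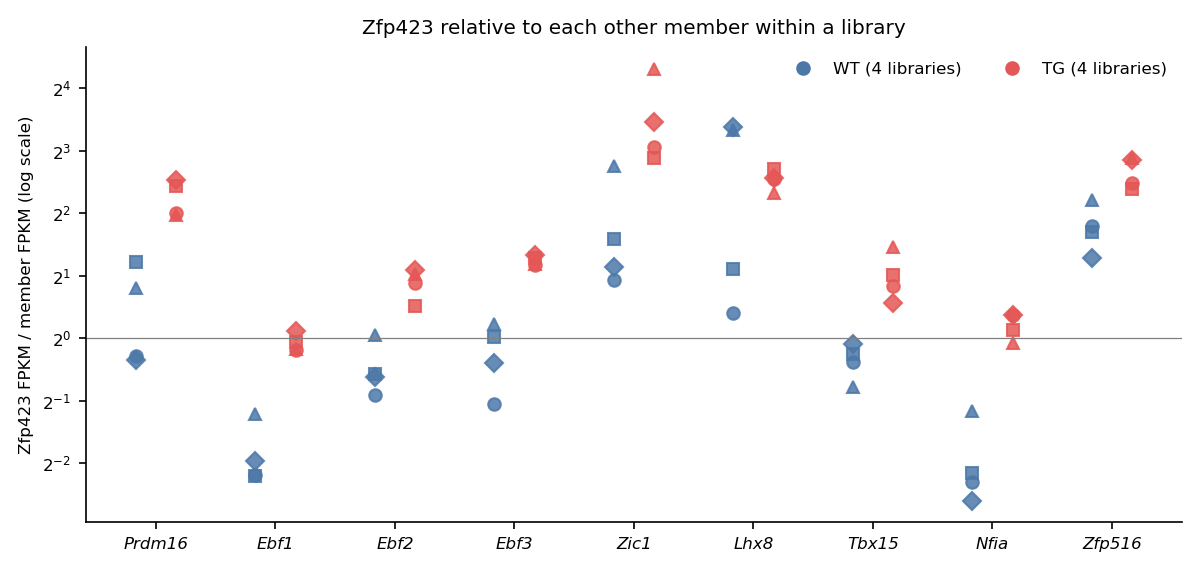
FPKM of Zfp423 divided by that of each other member in the same library, on a log2 axis, with WT in blue, TG in red and symbols for the mouse number. The TG values are above all WT values for 8 of the 9 genes; for Lhx8 the WT values run from 1.33 to 10.4 and enclose those of TG.

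Zfp516 (ENSMUSG00000058881, chromosome 18, 82910879 to 83005314, plus strand) was low in both genotypes and higher in TG. It stood at 0.434, 0.571, 0.491 and 0.737 FPKM in WT 1, 2, 3 and 5 and at 1.15, 0.942, 1.26 and 1.08 FPKM in TG. The genotypes did not overlap, and the ratio of means was 1.99. On the log2 scale TG minus WT was 0.44 (SE 0.106, 95% interval 0.20 to 0.68, limma adjusted p = 0.00832), on 40 to 66 reads in each WT library and 156 to 225 in each TG library. With pseudocounts of 0.1 and 0.01 the log2 difference of this low gene was 0.89 and 1.00 (adjusted p = 0.0108 and 0.0122). It passed the filter in 2 of 4 WT libraries and in 4 of 4 TG libraries, so its call is not separate from the filter. With no filter on low values it still passed the threshold (limma adjusted p = 0.0260). Without WT 2 and TG 5 the log2 difference was 0.45 (adjusted p = 0.0463).

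The 3 EBF genes did not move alike. Ebf2 (ENSMUSG00000022053, chromosome 14, 67233292 to 67430918, plus strand) stood at 2.83, 2.54, 2.37 and 2.75 FPKM in WT 1, 2, 3 and 5, and at 3.48, 3.40, 4.59 and 3.66 FPKM in TG. The genotypes did not overlap, TG 3 was the highest library, and the ratio of means was 1.44. The log2 difference was 0.40 (SE 0.110, 95% interval 0.15 to 0.64, limma adjusted p = 0.0162), and without WT 2 and TG 5 it was 0.40 with adjusted p = 0.0798, no longer past the threshold.

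Ebf1 (ENSMUSG00000057098, chromosome 11, 44617317 to 45008091, plus strand) was the steadiest member. Its values were 6.89, 6.15, 7.32 and 7.002 FPKM in WT 1, 2, 3 and 5 and 7.35, 7.84, 6.84 and 7.27 FPKM in TG. The ranges overlapped, and the coefficient of variation was 7.27% in WT and 5.62% in TG. On the log2 scale TG minus WT was 0.09 (95% interval -0.12 to 0.30, adjusted p = 0.479). Ebf1 is also the founding B cell factor of the family, and B cell markers differed between libraries: the 8 markers summed to 1.80 to 2.54 FPKM in WT, to 12.7 to 15.8 FPKM in TG 1, 2 and 3, and to 2.18 FPKM in TG 5. Ebf1 in TG 5, where that sum was at the WT level, lay between TG 3 and TG 1. That is 1 library, and the part of B cell transcripts in the Ebf1 values was not tested.

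Ebf3 (ENSMUSG00000010476, chromosome 7, 137193673 to 137314445, minus strand) stood at 3.14, 2.26, 1.58 and 2.35 FPKM in WT and at 2.85, 3.04, 2.70 and 3.12 FPKM in TG, in the same order of mice. Only WT 1 lay above the TG values. The log2 difference was 0.26 (95% interval -0.06 to 0.58, adjusted p = 0.171), and without WT 1 it was 0.37 with adjusted p = 0.0410. Within a library, the ratio of Ebf1 to Ebf2 was 2.42 to 3.09 in WT and 1.49 to 2.31 in TG, without overlap (exact permutation p = 0.0286, two-sided), whereas the ratio of Ebf1 to Ebf3 was 2.20 to 4.63 in WT and 2.33 to 2.58 in TG, with overlap. Ebf2 made up 21.0% to 23.2% of the summed EBF FPKM in WT and 23.8% to 32.5% in TG. Ebf4 did not exceed 0.324 FPKM in any library.

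Prdm16 (ENSMUSG00000039410, chromosome 4, 154316125 to 154636873, minus strand) did not pass the test. It stood at 1.84, 1.52, 0.686 and 2.29 FPKM in WT 1, 2, 3 and 5 and at 1.602, 1.77, 1.21 and 1.36 FPKM in TG. All TG values lay inside the WT range, whose lowest and highest libraries were WT 3 and WT 5. On the log2 scale TG minus WT was -0.02 (SE 0.194, 95% interval -0.46 to 0.42, adjusted p = 0.943). The values rested on 85 to 356 reads.

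Nfia (ENSMUSG00000028565, chromosome 4, 97772734 to 98118874, plus strand) had the lowest log2 difference of the members and did not pass either. It stood at 7.44, 5.96, 7.12 and 10.9 FPKM in WT 1, 2, 3 and 5 and at 4.96, 7.27, 6.004 and 6.06 FPKM in TG. The ranges overlapped, WT 5 being the highest and TG 1 the lowest library. The log2 difference was -0.30 (SE 0.170, 95% interval -0.69 to 0.08, adjusted p = 0.178). Within a library, the ratio of Ebf2 to Nfia was 0.253 to 0.427 in WT and 0.468 to 0.764 in TG, without overlap.

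Of the 3 depot markers, Zic1 and Lhx8 were among the lowest members, and Tbx15 lay in the middle of the order. Tbx15 (ENSMUSG00000027868, chromosome 3, 99240381 to 99354259, plus strand) stood at 1.97, 4.56, 1.91 and 1.91 FPKM in WT 1, 2, 3 and 5 and at 3.58, 2.51, 3.26 and 5.30 FPKM in TG. WT 2 and TG 5, the libraries rich in muscle transcripts, were the highest of their genotype, and TBX15 is also a factor of skeletal muscle fibres. On the log2 scale TG minus WT was 0.41 (SE 0.246, 95% interval -0.14 to 0.96, adjusted p = 0.209). Without WT 2 it was 0.64 (adjusted p = 0.0254), and without WT 2 and TG 5 it was 0.48 (adjusted p = 0.0395), with WT at 1.91 to 1.97 and TG at 2.51 to 3.58 FPKM. None of the 8 muscle markers that could be tested passed the threshold between the genotypes. Their list summed to 23.8 to 2898 FPKM in WT and 144 to 1614 FPKM in TG. With so wide a spread, not passing does not show equal muscle content. The part of muscle transcripts in the Tbx15 difference was not tested.

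**Figure D3:**
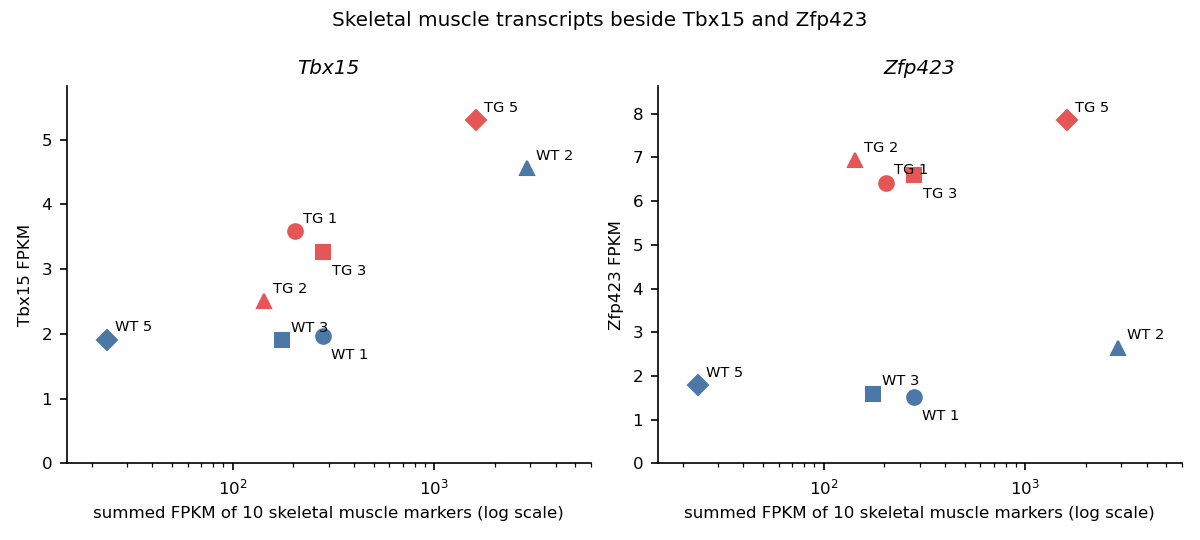
Level of Tbx15 (left) and Zfp423 (right) in FPKM against the summed FPKM of 10 skeletal muscle markers on a log axis, 1 point per library. WT 2 and TG 5 lie far to the right; Tbx15 is highest there in both genotypes, and Zfp423 of WT and TG does not overlap in the other 6 libraries.

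Lhx8 (ENSMUSG00000096225, chromosome 3, 154306294 to 154330659, minus strand) stood at 1.14, 0.264, 0.743 and 0.172 FPKM in WT 1, 2, 3 and 5 and at 1.09, 1.38, 1.00 and 1.33 FPKM in TG. WT 1 overlapped the TG values and WT 2 and WT 5 were far below them. The WT values came from only 5 to 34 reads per library, the 5 reads of WT 5 giving an exact 95% Poisson interval of 0.0560 to 0.403 FPKM that covers counting error alone, and the TG values from 58 to 77 reads. Lhx8 passed the filter in 2 of 4 WT and 4 of 4 TG libraries, so its call is not separate from the filter. The log2 difference was 0.52 (SE 0.189, 95% interval 0.09 to 0.94, adjusted p = 0.0497; exact permutation p = 0.0857). A pseudocount of 1 understates the change of so low a gene: the ratio of means was 2.07, and the log2 difference was 1.19 (adjusted p = 0.0609) and 1.40 (0.0669) with pseudocounts of 0.1 and 0.01 and 1.34 (0.0373) with limma's voom on the recovered reads. The call was lost without any 1 library other than WT 1, with adjusted p from 0.0534 without WT 3 to 0.122 without WT 2.

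Zic1 (ENSMUSG00000032368, chromosome 9, 91358058 to 91365810, minus strand) stood at 0.790, 0.392, 0.528 and 0.813 FPKM in WT 1, 2, 3 and 5 and at 0.766, 0.348, 0.892 and 0.713 FPKM in TG. The ranges nearly coincided, with WT 2 and TG 2 lowest. On the log2 scale TG minus WT was 0.04 (SE 0.142, 95% interval -0.28 to 0.36, adjusted p = 0.841), with 30 to 116 reads per library. The span of Zic1 is overlapped on the other strand by that of Zic4, whose reads came to 37.1% of those of Zic1. Overlap of their exons was not checked, and whether strand was used in counting is not stated. Whether the overlap affected the Zic1 reads is therefore not known. For the other members, overlapping genes had at most 0.286% of the member's reads.

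The scaling of the libraries moved several of these calls. Dividing by all recovered reads raised the median log2 difference of all genes to 0.32 and a rescaling that left mitochondrial and haemoglobin genes and 20 other abundant genes out of the library sum raised it to 0.24. With the former 7 of 10 members were higher, against 44.3% of all tested genes, and with the latter 6 of 10, against 38.8%. The members gained were Ebf1 (log2 difference 0.46), Ebf3 (0.57) and, with the former alone, Tbx15 (0.72). Relative to the shifted median, these were 0.15, 0.25 and 0.40 with all recovered reads, Zfp423 was 1.48, Ebf2 0.40, Zfp516 0.31, Lhx8 0.40, Prdm16 -0.08, Zic1 -0.10 and Nfia -0.25. The signs of Prdm16 and Nfia turned before subtracting that median, to 0.24 (adjusted p = 0.303) and 0.07 (0.701), with neither passing. Dividing by the reads outside the mitochondrial chromosome left the median at 0.03 and 4 members higher.

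**Figure D4:**
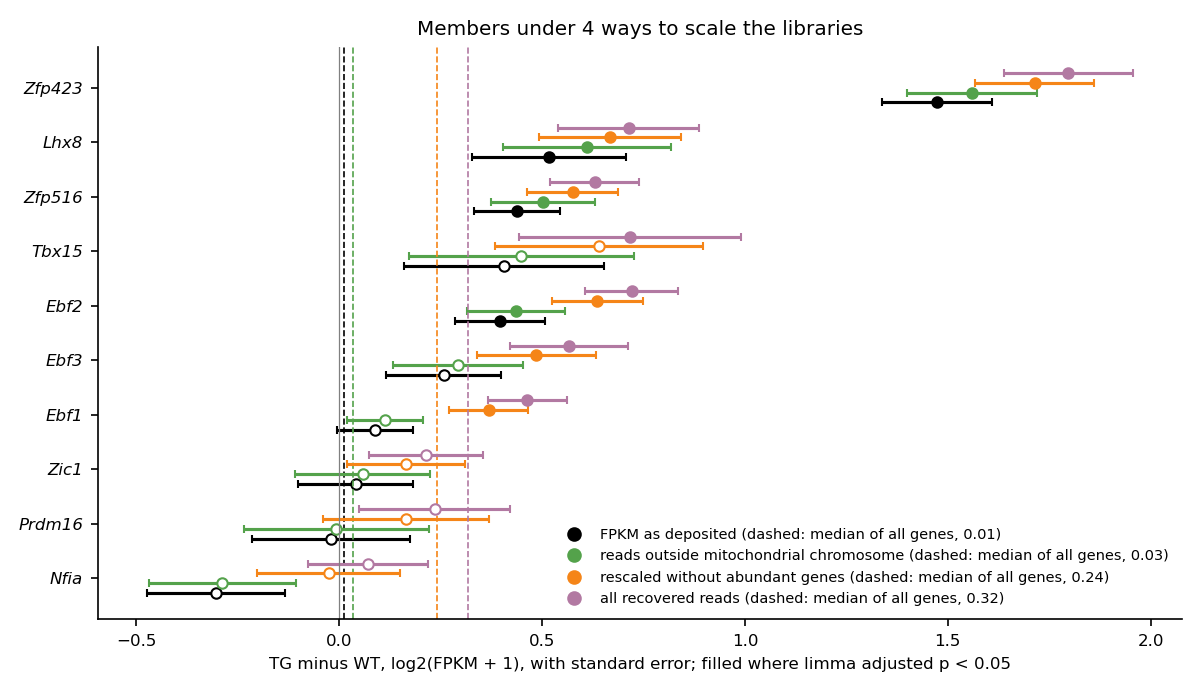
Log2 difference of each member, TG minus WT, with its standard error under 4 scalings of the libraries; filled points passed a limma adjusted p of 0.05 and dashed lines give the median of all genes under each scaling. Zfp423, Lhx8, Zfp516 and Ebf2 are filled under all 4, while Ebf1 and Ebf3 are filled only where the median of all genes itself was shifted.

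Relatives of the members in the same protein families mostly did not reach the filter, which does not make them silent. Prdm15 stood at 0.513 FPKM in WT and 0.480 in TG. Lhx6, named after its values were seen, stood at 0.824 ± 0.744 FPKM in WT and 0.052 ± 0.033 in TG (SD, n = 4). Neither was tested. Of 33 names of paralogs looked for, 32 were in the table, the other, Prdm3, being an alias of Mecom. The filter was reached by 9, of which 3 were higher and 4 lower, and Prdm2 and Prdm9 did not pass. Over all tested genes 22.3% were higher and 21.8% lower, and 9 genes are few to set beside these shares. The median log2 difference of the 9 was -0.18. The NFI family divided: Nfix stood at 5.40 ± 1.095 FPKM in WT against 10.35 ± 1.02 for TG (SD, n = 4; log2 difference 0.84, adjusted p = 0.000848) and Nfic rose by 0.66 (adjusted p = 0.00561), while Nfib had a log2 difference of -0.43 (adjusted p = 0.0321). Nfix and Nfic were higher with all scalings shown, and Nfib did not pass with reads outside the mitochondrial chromosome (-0.41, adjusted p = 0.0598) or with all recovered reads (-0.04, adjusted p = 0.841). Zfp521, the closest relative of Zfp423 and an inhibitor of EBF1, stood at 0.220 ± 0.157 FPKM in WT and 0.552 ± 0.0373 in TG (log2 difference 0.36, adjusted p = 0.0314); it reached the filter in the TG libraries alone, so its call is not separate from the filter. The other 3 that fell were Prdm4 (-0.44), Tbx18 (-0.52) and Mecom (-0.28), and with all recovered reads 0 paralogs were lower and 3 higher.

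Among partners and cofactors of the members, 13 of 33 tested genes were higher, 5 lower and 15 did not pass. The share called, 54.5%, stands beside 44.1% of all tested genes. With all recovered reads 20 were higher, where 44.3% of all tested genes were, and 4 lower. The median log2 difference was 0.04. Cebpa, a master factor of fat cell differentiation, rose from 181 ± 21.9 to 497 ± 58.5 FPKM (SD, n = 4; a log2 difference of 1.45, adjusted p = 3.29e-05). Cebpb, which forms a complex with PRDM16, went the other way, from 416 ± 227 to 128 ± 18.7 FPKM (-1.56, adjusted p = 0.00331). Pparg stood at 50.5 ± 10.6 and 49.3 ± 4.05 FPKM (-0.01, adjusted p = 0.947; 0.41 and adjusted p = 0.0457 with all recovered reads), while its heterodimer partner Rxra was higher by 1.59 (adjusted p = 4.81e-06). The BMP receptor Bmpr1a and its effector Smad5, of the signal that ZFP423 amplifies in precursors, were higher by 1.09 and 0.64. Smad1 and Smad4 of the same signal did not pass (-0.31 and -0.02, limma adjusted p = 0.136 and 0.900). With all recovered reads Smad4 was higher (0.38, adjusted p = 0.0184) and Smad1 did not pass (0.04, adjusted p = 0.832). Zbtb16, a zinc finger regulator of brown fat, rose from 2.25 ± 0.705 to 9.13 ± 2.62 FPKM (SD, n = 4; adjusted p = 0.000234).

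Among the cofactors that PRDM16 binds, Ehmt1 had a log2 difference of 0.50 (adjusted p = 0.00450), and Ctbp1, Ctbp2 and Med1 did not pass (-0.15, -0.19 and -0.17). The 5 lower genes were the coactivators Ppargc1a (-0.63; with all recovered reads -0.29, adjusted p = 0.168) and Ppargc1b (-1.67), the fatty acid receptor Ppara (-1.53), Cebpb and Hlx (-1.02), a homeobox factor of the brown programme. The deacetylase genes Hdac1 and Hdac3 were higher by 0.71 and 0.36, and Kdm1a, the demethylase that ZFP516 and PRDM16 recruit, did not pass (-0.12). Ehmt1, Ctbp1, Ctbp2, Med1, Hdac3, Kdm1a and Hlx, and below Elovl3, Tle3, Hoxc10, Tcf21, Myf5, Pax3 and Pax7, were named after their values were seen. Smad1 and Smad4 above were also named in this way.

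Genes listed as targets of PRDM16, EBF2 and ZFP516 in brown fat were mostly lower in TG. The list was chosen with earlier results of these data known, and binding of these factors was not measured. Its counts describe the list and are no test of these factors. Of 19 tested target genes 18 were lower, 0 higher and 1 did not pass; 21.8% of all tested genes were lower. The median log2 difference was -2.68. With all recovered reads 16 were lower. Ppara and Ppargc1a count here and among the partners. Kng2, Cox7a1, Slc27a2, Dio2, Gmpr and Fabp3 were lowest in p, with Dio2, the enzyme that activates thyroid hormone, at 21.9 ± 5.38 FPKM (SD, n = 4) for WT and 0.703 ± 0.305 for TG. The target that did not pass was Elovl3, a fatty acid elongase induced by cold, which stood at 14.5 FPKM in WT 1 and 0.398 to 1.16 FPKM in the other WT libraries, against 1.58 to 6.09 FPKM in TG. Without WT 1, 1 of the targets was higher in TG.

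Most genes listed as marks of white fat were higher. Of 13 tested 11 were higher, 0 lower and 2 (Hoxa5 and Shox2) did not pass, where 22.3% of all tested genes were higher. This list was also chosen with earlier results of these data known, so its counts are a description and no test. The list median was 1.08 on the log2 scale. They included Hoxc8, a positional homeobox factor of white fat that is held down in brown fat, at 1.51 ± 0.333 FPKM for WT and 4.30 ± 0.876 for TG (SD, n = 4; log2 difference 1.08, adjusted p = 0.000300), and Psat1, a serine synthesis enzyme (2.34). The corepressor Tle3, which opposes PRDM16 at PPARγ, was higher by 0.47 (adjusted p = 0.0227) and counts in this list and among the partners, as Zfp521 does here and among the paralogs. Hoxc10 and Tcf21, other factors of white fat, were listed at 0 in all 8 libraries.

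Genes of the somite precursor shared with muscle were few. Of 12 genes 6 could be tested, and 3 of them were lower. Over all tested genes 21.8% were lower, and 6 genes are few to set beside that share. Meox1, a homeobox factor of the somite, fell from 5.65 ± 1.74 to 1.15 ± 0.354 FPKM (SD, n = 4, limma adjusted p = 0.000126). Eya2 and Pdgfra had log2 differences of -1.20 and -0.53. Pdgfra counts here and among the markers of precursors and fibroblasts. Markers of endothelial cells were lower as well: 7 of 7 tested fell, and the sum of the 8 in the list was 65.4 to 165 FPKM in WT and 17.8 to 32.0 FPKM in TG, with none at 0 in all libraries. WT 5 had the highest endothelial sum and the highest Meox1 (8.19 FPKM) and Meox2 (9.70 FPKM); the part of endothelial transcripts in these values was not tested. Meox2 and En1 did not pass (-0.69 and 0.04). With all recovered reads Pdgfra did not pass (-0.25, adjusted p = 0.259). Myf5, Pax3 and Pax7, the precursor factors proper, did not reach the filter.

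**Figure D5:**
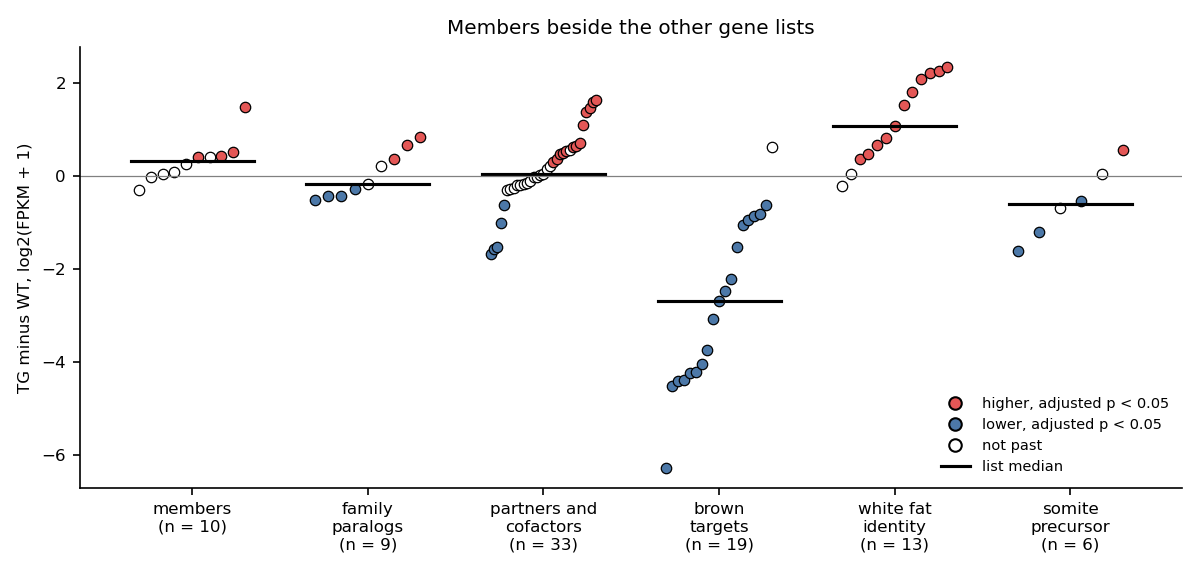
Log2 difference, TG minus WT, of each tested gene of the members and the 5 other lists; red points were higher and blue points lower at a limma adjusted p of 0.05, open points did not pass, and bars give list medians. The members and partners lie around their medians of 0.33 and 0.04, while 18 of 19 brown targets are below 0 and 11 of 13 white fat genes are higher.

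Of the 45 pairs of members, some varied together within a genotype, some in opposite directions and others little. The pairs given first are the extremes over all 8 libraries. After the mean of each genotype was subtracted, the highest correlation of log2(FPKM + 1) between members over the 8 libraries was that of Tbx15 with Zfp423 (Pearson r = 0.862, Spearman 0.429); without WT 2 and TG 5 it was -0.584. Prdm16 and Ebf3 had r = 0.751, and r = 0.784 without those 2 libraries. Lhx8 and Zfp516 had r = -0.856 and -0.925. Without those 2 libraries other pairs were the extremes. The highest was Nfia with Zfp423 (r = 0.937, against -0.272 over all 8). The lowest was Ebf1 with Zic1 (r = -0.936, against -0.145 over all 8). Of 10798 other protein-coding genes, the most alike to Zfp423 was Zfp955b (r = 0.968) and the most alike to Prdm16 was Plcg1 (r = 0.987). For each member the highest of these 10798 values lay between 0.954 and 0.987, and these are descriptions over 8 libraries, in which both genes of a pair share each library's depth and scaling.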

How the data were processed

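Brown adipose tissue RNA of 4 WT and 4 TG mice was sequenced from TruSeq libraries, per the labels' protocols. The submitters' processing notes name bcl2fastq, HISAT2 2.0.5 and featureCounts 1.5.0-p3 with build mm10. The authors deposited FPKM with a gene name, position and gene length in bases per gene; no source states how libraries were scaled. Multiplying FPKM by gene length and dividing by the smallest step of a library gave whole reads (largest distance from a whole number 3.26e-09). Their sum was 1.02 to 1.22 times the divisor that the WT values imply; in TG this ratio ranged from 0.822 to 0.883.

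The test was limma 3.58.1 under R 4.3.3 (a moderated fit with trend on log2 values, two-sided, pseudocount 1, at least 0.5 FPKM in at least 4 libraries, Benjamini-Hochberg at 0.05 over all tested genes) and, for single values, by exact permutation over 70 assignments. The procedure was run on simulated data in which few genes changed and the library totals were known. Such data cannot speak to the scaling of these libraries. Members and lists were chosen with earlier results of these data known. Genes named are the members, up to 8 paralogs and partners and up to 6 genes of each other list with the lowest p, Ppargc1a, Pparg, Cebpa and Cebpb, and the genes most alike to a member; others were named after their values were seen. The result of 1 gene of the somite list is not reported here. Same-numbered WT and TG mice did not deviate together (r from -0.238 to 0.0373), so the numbers were not taken as pairs. P-values measure the spread between mice. Alternatives covered pseudocount, filter, scaling, variance model, voom on recovered reads, replicate block and left-out libraries. Promoter windows are RefSeq's, on GRCm38.p6. The gene coordinates of 9 of 10 members equal those of GENCODE M21. Figures were drawn with matplotlib 3.10.9.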

Additional observations from a re-analysis of the deposited data

Results flagged for a closer look

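Tbx15 in WT was set apart by a single library: WT 2 stood at 4.56 FPKM, and the gap to the next library took up 0.976 of the range of the 4 WT values. Among 20 groups of 4 looked at (10 members in 2 genotypes) this was the only one past the 95% limit, and chance alone sets apart about 1 in 20. WT 2 also had the highest sum of skeletal muscle markers (2898 FPKM); the part of muscle transcripts in the Tbx15 value was not tested.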

How the results depend on the processing

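Zfp423 and Zfp516 stayed higher in TG under every alternative run for them, with log2 differences of 1.41 to 1.91 and 0.40 to 1.00. Over all genes, 4856 were higher and 1678 lower with the rescaling without abundant genes, and 5536 and 1442 with all recovered reads, against 2788 and 2725. Of the members, 7 were higher with all recovered reads, 2 with a filter of 2 FPKM, under which Lhx8, Zfp516, Prdm16 and Zic1 were not tested, and 2 with the replicate block. Ebf2 lost its call with the block (log2 0.40, adjusted p = 0.0536) and without WT 2 and TG 5 (0.40, 0.0798), and Lhx8 with the block (0.52, 0.0853) and without both libraries (0.40, 0.214). The labels do not state what same-numbered mice share beyond the number, and with the block 2389 genes were higher and 2458 lower. Lhx8 also lost its call with pseudocounts of 0.1 (1.19) and 0.01 (1.40), with no filter or one of 0.1 FPKM (0.52 each), with median of ratios scaling (0.51) and with quantile normalisation (0.46). Ebf1 (0.37, 0.46) and Ebf3 (0.49, 0.57) gained a call with the rescaling and all recovered reads, and Tbx15 with all recovered reads (0.72) and without WT 2 and TG 5 (0.48). Signs turned, without a call, for Prdm16 with pseudocounts of 0.1 (0.010) and 0.01 (0.020), upper quartile scaling (0.0082), the rescaling (0.16), all recovered reads (0.24), voom (0.033) and without WT 2 and TG 5 (0.0059); for Zic1 with quantile normalisation (-0.0022) and without WT 2 and TG 5 (-0.046); and for Nfia with all recovered reads (0.071). Leaving out 1 library gave log2 differences of -0.21 to 0.11 for Prdm16, -0.033 to 0.14 for Zic1, 0.39 to 0.68 for Lhx8, 0.14 to 0.37 for Ebf3, 0.25 to 0.64 for Tbx15 and 3 to 5 members higher. The cause of these changes was not tested. Low counts limit Lhx8, Zic1 and Zfp516 most.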
